A study of Homo sapiens with 12 samples.

Results

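How the response to PEPD over-expression depends on the cell line was measured in T98G and U251, both established lines from human glioblastoma, the most malignant astrocytic brain tumour. The comparison used all 12 of the 12 RNA-seq libraries of the series, and asked for each gene how far the T98G change differed from the U251 change. It also asked whether the response moved each line toward or away from the state of the other line's controls. The 4 groups, with 3 libraries each, were T98G cells labelled PEPD-OE, T98G cells labelled NC, U251 cells labelled PEPD-OE and U251 cells labelled NC. The series title gives PEPD-OE as over-expression of PEPD, and the labels do not expand NC. The vector, the promoter that drives PEPD, the time in culture and whether a line is 1 clone are not stated in the labels. The labels do not say that the replicates were separate cultures, so the p-values describe the spread of these libraries alone, and that spread may be technical.

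Prolidase, the product of PEPD, cleaves dipeptides with a proline or hydroxyproline at the end, many of them released from collagen. T98G and U251 were derived from different tumours. The gene groups described here belong to programmes that cultured tumour cells run at different levels: the amino acid response driven by the transcription factor ATF4, chaperones, growth factor signalling through ERK, the YAP-TEAD programme of adherent cells, interferon-stimulated genes and the NRF2 antioxidant programme. Each can respond in 1 line, in both alike, or in opposite directions.

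Library totals ran from 464056 to 924204 counts, so 3 counts equalled 3.25 to 6.46 CPM (counts scaled to a common library size, with TMM factors wherever levels are given). Many counts stood under genes opposite an abundant transcript: BEST1, whose exons overlap ferritin heavy chain FTH1, held 486557 counts against 10068 under FTH1, and genes with an opposite-strand exon held 62.2% to 70.1% of a library. Values under a gene with such an exon are therefore named with the partner after the word opposite, and may belong to that partner. The doubt is wider than these genes: the libraries mark strand, the strand setting of the counting is not given in the sources used here, and of the counts under FTH1 and BEST1 together FTH1 held only 1.73% to 2.24% in a library. MALAT1, the abundant nuclear RNA opposite TALAM1, likewise held 1.60% to 2.33% of the counts of that pair. If reads were counted on the strand opposite their transcript, counts under genes without such an exon, among them PEPD, STC2 and IFI44L, are the small remainder of their reads assigned to the other strand. Every CPM level here is therefore a level of these deposited counts and may not be transcript abundance, and a change in a gene assumes that its remainder is a like share in the libraries compared, which was not tested gene by gene. PEPD, without such an exon, stood at 19.0, 2.60 and 11.3 CPM in the T98G NC libraries and 175, 156 and 162 in T98G PEPD-OE. In U251 it stood at 13.2, 6.44 and 8.97 CPM in NC and 170.3, 167 and 187 in PEPD-OE. The difference between the PEPD increases was -0.12 (SE 0.47, adjusted p = 0.886) on the log2 scale. Of the markers, MGMT, known to be expressed in T98G and silenced in U251, had 15 counts over the T98G libraries and 0 in U251. Markers of macrophages and microglia, none abundant enough to be tested, stood apart in replicate 2 of both T98G groups: the list summed to 74.2 CPM in T98G NC replicate 2 and 67.9 in T98G PEPD-OE replicate 2, against 0 to 12.6 in the other 10 libraries. PTPRC, the leukocyte antigen CD45, made up 35 of 55 and 25 of 49 of those counts, while C1QA and C1QB were at 0 in every library; the counts of calls are therefore also given without this pair of libraries. The share of mitochondrial counts was 4.94% to 6.01% in T98G NC and 7.5005% to 9.32% in T98G PEPD-OE, against 4.35% to 5.17% and 3.44% to 5.19% in U251. The nuclear TALAM1 (opposite MALAT1) held 1.11% to 1.23% of counts in T98G NC and 3.48% to 4.18% in T98G PEPD-OE, against 2.31% to 2.87% and 1.75% to 2.30% in U251. The part of these shares in the results was not tested.

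Of the 8773 genes tested, 2428 changed differently in the lines (27.7%, edgeR quasi-likelihood test, called at adjusted p under 0.05 throughout). The T98G change exceeded the U251 change in 1239 genes (14.1%) and fell short of it in 1189 (13.6%), and 1749 differed at least 2-fold. Within T98G, 2837 genes changed (32.3%), 1551 rising (17.7%) and 1286 falling (14.7%). Within U251, 750 changed (8.55%), 362 rising (4.13%) and 388 falling (4.42%). The U251 count was 440 without U251 PEPD-OE replicate 2, 449 without U251 NC replicate 1, 442 without U251 NC replicate 3, and 415 with DESeq2, where 38.1% of the calls were higher against 48.3% with edgeR. Without replicate 2 of both T98G groups, the difference between the lines had 2030 calls, T98G 2100 and U251 706.

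Where both lines changed, they mostly changed in opposite directions. Of 438 genes called in both, 349 had opposite signs (79.7%): 183 rose in T98G and fell in U251, and 166 fell in T98G and rose in U251. The other 89 had the same sign, 38 rising and 51 falling. The changes of the lines share no library. The number with opposite signs was 218, 222 and 201 without U251 PEPD-OE replicate 2, U251 NC replicate 1 and U251 NC replicate 3 in turn and 272 without replicate 2 of both T98G groups, while their share of genes called in both ran from 77.3% to 82.6% over the 22 settings run. All 349 were also called in the difference between the lines, which follows almost by construction when both changes are called with opposite signs. Most of the 2428 line-dependent genes were called in 1 line: 1585 in T98G alone and 155 in U251 alone, and 302 in neither. Over all genes tested the changes had a Pearson r of -0.21 and a Spearman rho of -0.24, a description across genes, which are not independent replicates.

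**Figure D1:**
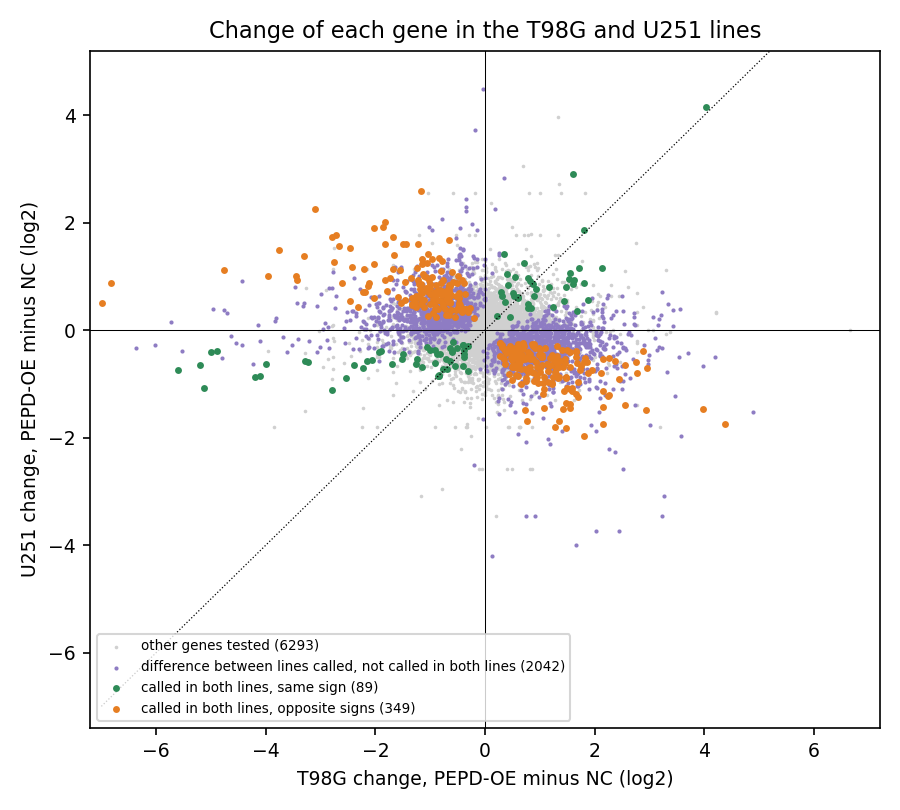
Log2 change with PEPD over-expression of each of the 8773 genes tested, T98G on the x axis and U251 on the y axis, with the dotted line marking equal change. The 349 genes called in both lines with opposite signs lie at the upper left and lower right, and the green point at the upper right is PEPD.

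The opposite changes ran along the difference that already separated the controls. In the NC libraries 4273 genes differed between the lines (48.7%), 2137 higher in T98G (24.4%) and 2136 higher in U251 (24.3%). Of the 166 genes that fell in T98G and rose in U251, 115 were higher in T98G NC, 16 were higher in U251 NC and 35 had no called gap. Of the 183 that rose in T98G and fell in U251, 135 were higher in U251 NC, 16 were higher in T98G NC and 32 had no called gap. Counting each line by itself, a change led toward the other line's NC level for 1141 genes and away from it for 566 in T98G (66.8% toward). In U251 it led toward for 497 genes and away for 83 (85.7% toward). A further 1130 genes in T98G and 170 in U251 changed with no called gap between the controls. These counts share the NC libraries with the gap, and an error in an NC mean adds to toward, so no test was made of them. The U251 counts were 298 toward and 45 away without U251 PEPD-OE replicate 2, 305 and 43 without U251 NC replicate 1, and 299 and 46 without U251 NC replicate 3. Without replicate 2 of both T98G groups, T98G had 814 genes toward and 376 away. Without U251 NC replicate 2 the U251 away count was 53. T98G went past the U251 NC level in 167 genes, and U251 went past the T98G NC level in 6.

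Over the whole expression profile, U251 moved closer to T98G NC while T98G moved farther from U251 NC. The distance used was the root mean square log2 CPM difference over the 5611 genes with a mean of at least 20 CPM. The T98G NC libraries lay 1.17, 1.15 and 1.15 from the U251 NC mean, and the T98G PEPD-OE libraries 1.31, 1.30 and 1.30. The U251 NC libraries lay 1.16, 1.14 and 1.16 from the T98G NC mean, and the U251 PEPD-OE libraries 1.10, 1.08 and 1.08. In neither line did PEPD-OE and NC overlap. The mean difference was 0.147 in T98G and -0.0634 in U251 (exact two-sided permutation test, p = 0.1 in each line, the smallest that 3 against 3 allows). Without replicate 2 of both T98G groups the T98G difference was 0.148. Measured along the straight line between the NC means, T98G PEPD-OE had nevertheless gone 8.32% ± 0.0338 (SD, n = 3) of the way to U251 NC, and U251 PEPD-OE 11.5% ± 0.932 of the way to T98G NC. These SDs cover the PEPD-OE libraries alone and leave out the error of the NC means. On the same line the NC libraries had an SD of 0.520% in T98G and 1.02% in U251. The spread of the NC libraries alone gives an apparent offset of 2.28% in T98G and 1.87% in U251. The T98G profile moved 0.759 from its own NC mean on the same scale and U251 0.377, so most of the movement in both lines was not along that line.

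**Figure D2:**
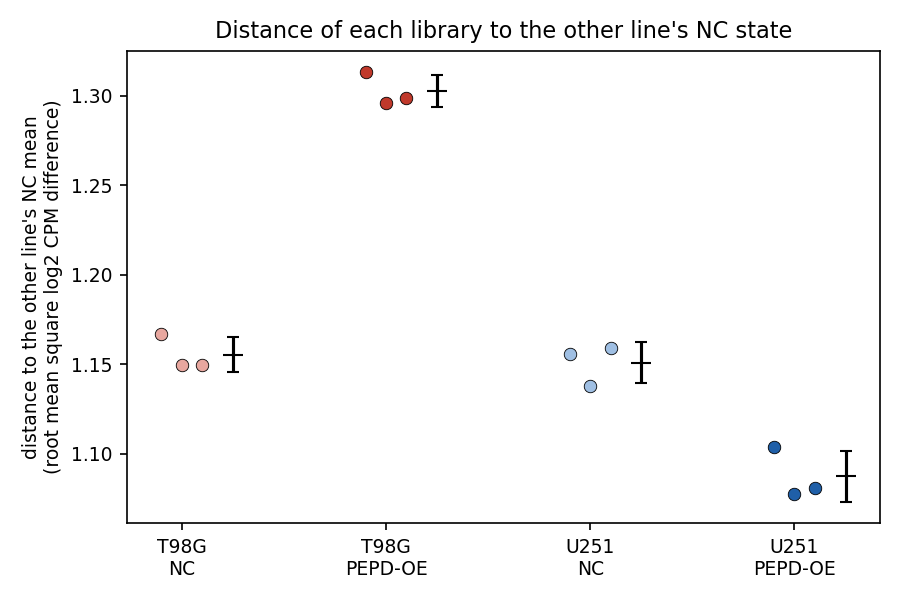
Root mean square log2 CPM distance of each library to the mean of the other line's 3 NC libraries, over 5611 genes; points are libraries, and bars show the mean and SD of 3. T98G PEPD-OE sits above T98G NC, and U251 PEPD-OE below U251 NC, with no overlap in either line.

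The genes behind these distances differed between the lines. In T98G the mean squared distance to U251 NC went from 1.28 to 1.64. The 947 toward genes in this set lowered it by 0.204. The 485 away genes added 0.389 and the 814 genes that changed without a called gap added 0.156. In a squared distance, an away change adds more than a toward change of equal size across an equal gap removes. A change where there is no gap can only add. The split therefore does not show that away changes prevailed. Over all genes tested, T98G toward and away genes had median absolute changes of 1.01 and 0.94, across median gaps of 1.09 and 1.13. In U251 the mean squared distance to T98G NC went from 1.28 to 1.13, with a change of -0.129 from 437 toward genes, 0.0315 from 69 away genes and -0.0665 from 4960 genes not called. The over-expressing lines lay farther apart than the controls. The 9 pairs of T98G and U251 libraries were 1.16 to 1.20 apart in NC and 1.31 to 1.33 apart in PEPD-OE, 11.99% more on average. This increase was 7.86% with the median absolute difference in place of the root mean square, and 19.7% with 1 minus the Spearman correlation. Between the PEPD-OE groups 4617 genes differed (52.6%), 2311 higher in T98G (26.3%) and 2306 higher in U251 (26.3%). Of the gaps called in NC, 1468 were no longer called in PEPD-OE and 369 had turned round, while 1812 gaps were called in PEPD-OE alone.

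**Figure D3:**
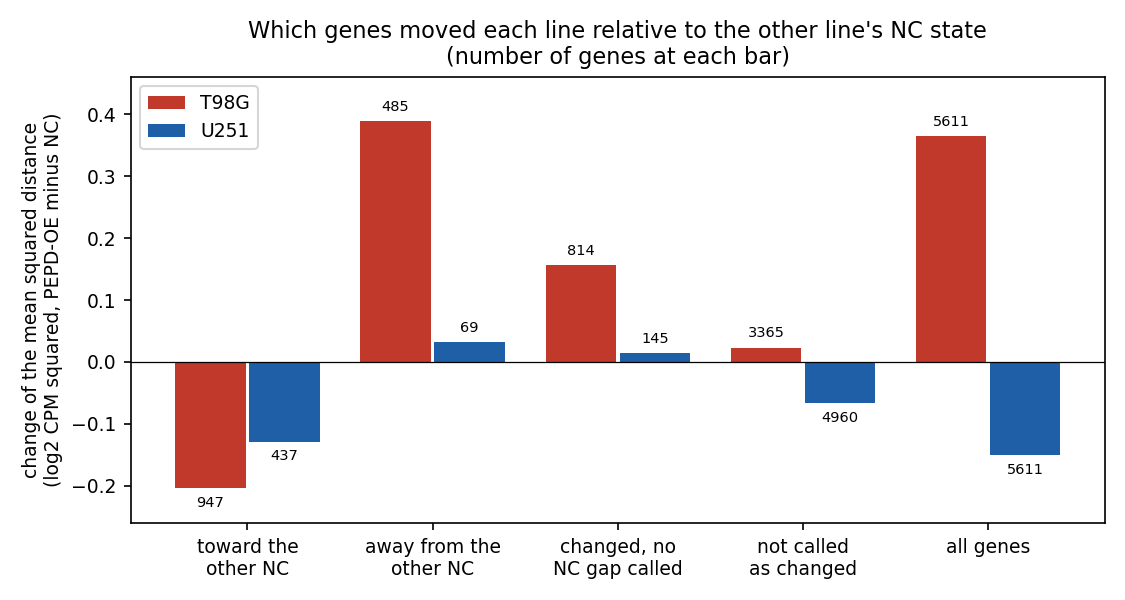
Change of the mean squared distance to the other line's NC mean (log2 CPM squared, PEPD-OE minus NC) split by class of gene, with the number of genes at each bar; a bar below 0 brings the line closer. In T98G the away genes (0.389) outweigh the toward genes (-0.204), and in U251 they do not. The square weighs an away change more than an equal toward change.

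Gene lists written from textbook knowledge differed in how the lines moved, and several were mixed or changed alike, such as cholesterol synthesis with medians of 0.56 in T98G and 0.55 in U251. ATF4 and amino acid response genes, aminoacyl-tRNA synthetases and cytosolic chaperones were mostly higher in T98G NC, as were 21 of 41 replication genes. In each of these lists more members fell in T98G than rose. Interferon-stimulated genes fell much more in T98G, whose NC level was already the lower for most of them, and NRF2 targets rose in T98G, where 19 of 38 were already the higher in NC. For comparison, the median over all genes tested was -0.02 for the difference between the lines, and 0.02 with RLE scaling. Each list is described by its counts and median, without a test of the list. The counts stand against shares over all genes tested of 17.7% rising and 14.7% falling in T98G, and 4.13% and 4.42% in U251. In the difference between the lines these shares were 14.1% higher and 13.6% lower. Without replicate 2 of both T98G groups, the members with a lower T98G than U251 change were 43 for interferon, 21 for ATF4, 12 for the synthetases, 11 for heat shock, 14 for ERK, 13 for YAP-TEAD and 15 for replication genes.

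**Figure D4:**
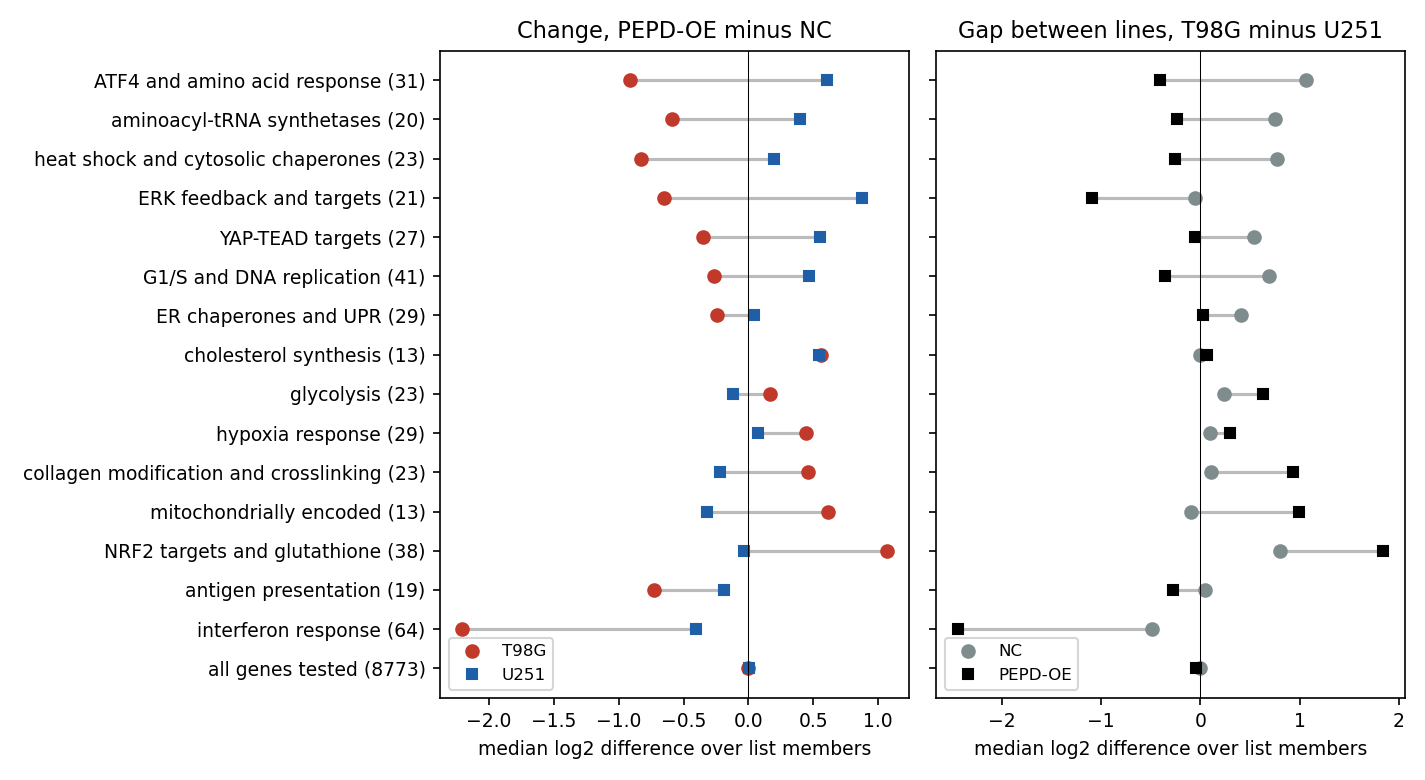
Median log2 difference over the measured members of 15 gene lists and over all genes tested (number of genes in parentheses; ER, endoplasmic reticulum; UPR, unfolded protein response); left, the change in T98G (circles) and U251 (squares); right, the T98G minus U251 gap in NC (circles) and PEPD-OE (squares). In the ATF4 list the changes were -0.91 and 0.61 and the gap went from 1.06 to -0.41, while in the interferon list the gap went from -0.48 to -2.45.

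ATF4 switches on amino acid transporters and synthesis enzymes when amino acids run short or unfolded protein accumulates. Of 31 such genes measured, 18 fell and 3 rose in T98G, while 12 rose in U251; 23 had a lower and 2 a higher T98G than U251 change (median -1.48). In the NC libraries 20 were higher in T98G and 4 in U251. STC2 (ENSG00000113739, GRCh38 chromosome 5, 173314713 to 173329503), a secreted stanniocalcin glycoprotein, went from 350.3, 326 and 329.9 CPM in T98G NC to 62.1, 43.6 and 75.5 in T98G PEPD-OE. In U251 it went from 16.9, 10.3 and 15.4 to 46.7, 38.2 and 40.6. The groups did not overlap in either line, and the difference between the changes was -3.99 (SE 0.31, adjusted p = 1.52e-23). The gap between the lines thereby went from 4.54 in NC to 0.55 in PEPD-OE on the log2 scale. SLC7A5 (ENSG00000103257, GRCh38 chromosome 16, 87830023 to 87869488, opposite AC126696.2), the large neutral amino acid transporter, went from 253, 246 and 301 CPM to 68.0, 74.8 and 82.6 in T98G and from 36.1, 18.0 and 30.7 to 90.4, 81.2 and 90.8 in U251. Its T98G and U251 PEPD-OE levels did not differ detectably (-0.22, adjusted p = 0.311), after a NC gap of 3.23. PSAT1, of serine synthesis, fell in T98G from 67.2 ± 8.52 to 5.96 ± 2.62 CPM (SD, n = 3 here and below), past the U251 NC level of 16.3 ± 4.10; in U251 PEPD-OE it stood at 29.1 ± 3.62 (U251 adjusted p = 0.0762). TRIB3, a pseudokinase induced by ATF4, rose in U251 from 6.23 ± 1.90 to 22.4 ± 8.26 CPM and stood at 19.3 ± 7.92 and 10.4 ± 2.75 in T98G NC and PEPD-OE (difference -2.82, adjusted p = 3.8e-05).

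The aminoacyl-tRNA synthetases, which load amino acids onto tRNAs and many of which are ATF4 targets, moved the same way. Of 20 measured, 10 fell in T98G and 3 rose in U251, and 14 had a lower T98G than U251 change (median -1.05); 12 were higher in T98G NC. TARS1, for threonine, fell in T98G from 97.1, 105 and 99.1 to 51.8, 40.5 and 37.0 CPM and rose in U251 from 67.4, 64.4 and 47.4 to 94.9, 94.3 and 88.6. The difference was -1.85 (SE 0.27, adjusted p = 2.94e-09), and the libraries of PEPD-OE and NC did not overlap in either line. WARS1 (opposite AL157871.4 and WDR25), for tryptophan and also interferon-induced, fell in T98G from 104 ± 15.9 to 24.3 ± 1.93 CPM, below its U251 NC level of 44.5 ± 12.3. IARS1, for isoleucine, fell in T98G from 59.0 ± 12.7 to 29.4 ± 8.30 CPM and stood at 21.9 ± 7.51 and 31.2 ± 6.96 in U251 NC and PEPD-OE.

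Cytosolic chaperones fold new protein and are raised by heat shock factor. Of 23 measured, 14 fell and 1 rose in T98G, 6 rose and 1 fell in U251, and 14 had the lower change in T98G against 1 with the higher (median -0.995). HSP90AA1 (opposite WDR20), the inducible HSP90, went from 798, 943 and 849 CPM to 365, 382 and 395 in T98G and from 494, 573 and 487 to 939, 894 and 824 in U251. Each line thus came to stand where the other had been or beyond it, without overlap within a line, and the difference was -1.96 (SE 0.14, adjusted p = 1.66e-26). HSPA8 (ENSG00000109971, GRCh38 chromosome 11, 123057489 to 123063230), the constitutive HSP70, went from 806, 859 and 739 to 279.6, 374 and 333 CPM in T98G and from 261, 300.2 and 261 to 351, 387 and 391 in U251. Its NC gap of 1.55 shrank to -0.20 in PEPD-OE (adjusted p = 0.129). DNAJA1, an HSP70 co-chaperone, shows the same T98G decrease without a NC gap: it fell from 279 ± 1.32 to 74.0 ± 11.1 CPM in T98G and stood at 277 ± 26.9 and 272 ± 25.3 in U251. Chaperones of the endoplasmic reticulum were less uniform: 7 of 29 had a lower and 2 a higher T98G change (median -0.34). CRELD1, a disulfide isomerase of that compartment, rose in T98G from 16.9 ± 7.34 to 38.4 ± 9.78 CPM and fell in U251 from 84.6 ± 18.8 to 48.5 ± 6.70.

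Growth factor signalling through ERK raises AP-1 factors and its own feedback inhibitors. Of 21 ERK feedback and target genes measured, 11 fell in T98G, 13 rose in U251 and 7 did both; 16 had the lower change in T98G (median -1.39). Their NC gap was mixed, with 8 higher in T98G and 3 in U251, and in PEPD-OE 14 were higher in U251 and 3 in T98G. FOSL1 (ENSG00000175592, GRCh38 chromosome 11, 65892049 to 65900573), an AP-1 subunit, went from 148, 153 and 219.5 to 53.2, 63.9 and 75.5 CPM in T98G. In U251 it went from 39.7, 30.9 and 32.0 to 94.9, 94.3 and 121, again without overlap, and the difference was -3.05 (SE 0.26, adjusted p = 5.57e-21). EGR1, an immediate early factor, rose in U251 from 8.83 ± 2.35 to 42.6 ± 0.401 CPM and stood at 15.7 ± 2.81 and 18.2 ± 6.56 in T98G (difference -2.08, adjusted p = 0.000569). ETV4 (opposite DHX8), an ERK-induced ETS factor, had 1 count over the U251 NC libraries and 32 in U251 PEPD-OE, a ratio of 31.3-fold (exact 95% counting interval 5.24 to 1276), against 12.03 ± 1.30 and 11.99 ± 3.52 CPM in T98G NC and PEPD-OE. CXCL8, the chemokine interleukin-8, fell in T98G from 6.33, 6.497 and 6.27 to 0, 0 and 1.42 CPM and rose in U251 from 12.04, 10.3 and 10.2 to 19.6, 29.8 and 34.2. Its T98G PEPD-OE value rests on 1 count, lower than NC by 12.9-fold (exact 95% counting interval 1.93 to 547). The T98G decrease was not called without replicate 2 of both T98G groups (adjusted p = 0.0541), and the U251 increase was not called without U251 PEPD-OE replicate 3 (adjusted p = 0.0675). In the wider AP-1 and immediate early list, 3 of 15 genes had a lower and 3 a higher T98G change.

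YAP and TEAD drive genes of adhesion and matrix, and 12 of 27 such targets rose in U251, while 8 fell and 4 rose in T98G. The T98G change was the lower in 12 and the higher in 1 (median -1.17), and 7 were called with opposite signs. THBS1 (ENSG00000137801, GRCh38 chromosome 15, 39581079 to 39599466, opposite FSIP1 and THBS1-AS1), the matrix protein thrombospondin-1, went from 1256, 1253 and 1276 CPM in T98G NC to 283, 229 and 302 in T98G PEPD-OE. In U251 it went from 254, 357 and 306 to 661, 759 and 604, and the difference between the changes was -3.36 (SE 0.15, adjusted p = 1.08e-46). NT5E, the cell surface enzyme CD73, fell in T98G from 56.98, 33.8 and 47.7 to 2.96, 4.67 and 4.27 CPM and rose in U251 from 72.2, 45.1 and 29.5 to 105, 103 and 90.8, from NC levels that did not differ detectably (adjusted p = 0.65). F3, tissue factor, fell in T98G from 90.9 ± 7.004 to 25.6 ± 4.91 CPM and rose in U251 from 3.40 ± 2.001 to 14.2 ± 4.32, so the gap went from 4.70 to 0.87. IGFBP3, which binds insulin-like growth factors, did likewise, from 148 ± 10.4 to 65.1 ± 9.40 CPM in T98G and from 2.41, 6.44 and 0 to 18.1, 19.1 and 18.2 in U251. CCN2 (ENSG00000118523, GRCh38 chromosome 6, 131948176 to 131951373, opposite AL133346.1), connective tissue growth factor, behaved differently: U251 already had the higher NC level and moved away, from 97.5, 90.2 and 111 to 524, 517 and 436 CPM. In T98G it stood at 31.7, 49.4 and 53.9 and 34.0, 45.2 and 31.3 in NC and PEPD-OE, which overlapped, and the difference was -2.65 (SE 0.27, adjusted p = 3.46e-16). CCN1, its matricellular relative, rose in U251 from 65.9 ± 14.0 to 170.4 ± 9.60 CPM and in T98G stood at 92.3 ± 28.4 in NC and 69.9 ± 13.1 in PEPD-OE (T98G adjusted p = 0.0548).

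Promoter sequences of CXCL8, CCN2 and THBS1 are shown because these genes went in opposite directions or rose in U251 alone. Each is a 70-base window from the RefSeq promoter table (GRCh38.p14), read 5′ to 3′ on the gene's strand, with the AP-1 motif TGANTCA (CXCL8) or the TEAD motif GGAATG (CCN2, THBS1) in capitals. The windows are chr4:73740400-73740469, plus strand, chr6:131951430-131951499, minus strand and chr15:39581001-39581070, plus strand.
CXCL8: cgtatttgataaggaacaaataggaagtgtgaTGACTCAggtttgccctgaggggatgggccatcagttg
CCN2: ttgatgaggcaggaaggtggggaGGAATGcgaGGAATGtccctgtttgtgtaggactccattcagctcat
THBS1: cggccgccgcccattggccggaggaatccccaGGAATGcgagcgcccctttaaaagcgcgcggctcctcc
On both strands of the 250 bases before the start, GGAATG was found in 8 of 20 YAP-TEAD list promoters (40.0%) and in 11.9% of all 27305 promoters. TGANTCA was found in 2 of 14 ERK list promoters and in 6.60% of all promoters. The ATF4 list held TGATGNAA in 1 of 25, against 3.19% of all promoters. Among tested genes with a promoter in the table, the shares were 9.17% for GGAATG, 3.72% for TGANTCA and 1.29% for TGATGNAA. Among genes with a lower T98G than U251 change, 9.31% held GGAATG and 5.52% held TGANTCA, against 9.28% and 3.71% among those with a higher one. The median difference between the lines was -1.03 in the YAP-TEAD members with GGAATG and -1.30 in those without it. In the ERK list it was -3.02 in 2 genes with TGANTCA and -1.23 without. In the ATF4 list it was -1.61 in 1 gene with TGATGNAA and -1.56 without. These splits were not tested, and a match describes the letters alone.

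Genes of G1/S and DNA replication mark cells that enter the cycle. Of 41 measured, 13 fell and 1 rose in T98G, 10 rose in U251, and 15 had the lower T98G change against 1 with the higher (median -0.86). In NC 21 were higher in T98G and 1 in U251, and in PEPD-OE 2 and 11. CLSPN (opposite AL354864.1), the checkpoint adaptor claspin, fell in T98G from 99.2, 85.8 and 80.3 to 37.0, 34.3 and 31.3 CPM and rose in U251 from 40.9, 32.2 and 43.5 to 66.3, 97.9 and 64.1. The difference was -2.31 (SE 0.30, adjusted p = 4.75e-11), and each PEPD-OE group came close to the other line's NC level. POLE, the leading strand polymerase, fell from 33.3 ± 3.85 to 14.7 ± 4.78 CPM in T98G and rose from 14.6 ± 1.59 to 29.8 ± 6.33 in U251. CDC45, part of the replicative helicase, fell from 25.5 ± 4.28 to 11.2 ± 4.75 and rose from 6.21 ± 3.03 to 15.9 ± 0.826 CPM. Genes of G2/M and mitosis, by contrast, were called in few members: 6 of 54 had a lower and 4 a higher T98G change, a share of called members below that of all genes tested.

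Interferon-stimulated genes encode antiviral proteins that cells raise when interferon binds its receptor. Of 64 measured, 57 fell and 1 rose in T98G, and 24 fell in U251; 44 had a lower T98G than U251 change, and 2 a higher one (median -1.76). The median change was -2.21 in T98G and -0.41 in U251. In NC 35 were higher in U251 and 8 in T98G, and in PEPD-OE 55 were higher in U251 and 4 in T98G. The same direction of change therefore led 31 genes away from the U251 NC level and 8 toward it in T98G, and in U251 18 toward the T98G NC level and 1 away. IFI44L (ENSG00000137959, GRCh38 chromosome 1, 78619922 to 78646145) went from 194, 231 and 202 CPM in T98G NC to 10.4, 6.23 and 4.27 in T98G PEPD-OE. In U251 it went from 432, 465 and 435 to 351, 370.1 and 295, and the groups did not overlap in either line. The difference between the changes was -4.49 (SE 0.28, adjusted p = 8.2e-32). MX1 (opposite MX1-AS1), a dynamin-like antiviral GTPase, started from NC levels that did not differ detectably (adjusted p = 0.179), 230.0, 330.0 and 257 CPM in T98G and 315, 321 and 310.0 in U251. It fell to 5.92, 12.5 and 7.12 in T98G PEPD-OE and to 212, 267 and 229.6 in U251 PEPD-OE. IFIT3, an antiviral protein of the IFIT family, fell from 97.8 ± 8.22 to 2.49 ± 3.07 CPM in T98G and from 174 ± 15.3 to 111 ± 7.72 in U251. In T98G PEPD-OE, IFI27 had 3 counts and RSAD2 (viperin, opposite CMPK2) 1, lower than NC by 54.1-fold (exact 95% counting interval 18.2 to 265) and 61.4-fold (exact 95% counting interval 10.6 to 2462). CMPK2 (opposite RSAD2) had 0 counts there, at least 9.24-fold lower than NC against a floor of 3 counts over the group. Antigen presentation genes moved less, with 5 of 19 having a lower T98G than U251 change (median -0.53): TAP1 (opposite PSMB8-AS1), the peptide transporter, fell in T98G from 38.3 ± 14.4 to 8.52 ± 3.52 CPM and stood at 72.6 ± 12.6 and 67.6 ± 18.0 in U251.

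Promoter windows of RSAD2, IFI27, IFIT3 and IFI44L are shown because their levels fell to a few CPM in T98G but not in U251, with the interferon-stimulated response element GAAANNGAA, or its reverse complement, in capitals. They are chr2:6865775-6865844, plus strand, chr14:94110610-94110679, plus strand, chr10:89327845-89327914, plus strand and chr1:78620344-78620413, plus strand (RefSeq, GRCh38.p14, gene strand).
RSAD2: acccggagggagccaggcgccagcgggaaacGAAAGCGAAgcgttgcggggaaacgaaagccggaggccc
IFI27: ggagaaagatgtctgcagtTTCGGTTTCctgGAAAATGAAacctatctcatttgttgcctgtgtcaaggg
IFIT3: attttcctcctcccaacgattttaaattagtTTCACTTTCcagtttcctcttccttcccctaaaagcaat
IFI44L: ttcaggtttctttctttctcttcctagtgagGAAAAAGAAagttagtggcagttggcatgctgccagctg
The element was found in 28 of 51 interferon list promoters (54.9%) and in 7.06% of all promoters. Among genes with a lower T98G than U251 change 8.28% held it, and among those with a higher one 4.21%, against 5.41% of tested genes with a promoter in the table. Interferon list members made up 21 of the 72 genes behind that 8.28%. Within the list, 26 of 28 members with the element fell in T98G and 12 in U251, and of 23 without it 21 and 8 fell. The median difference between the lines was -2.15 with the element and -1.52 without it, a description that was not tested. Among the 123 genes with a promoter that fell in T98G and rose in U251, 3.25% held the element.

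NRF2 targets, which detoxify electrophiles and make glutathione, rose in T98G: 30 of 38 were called higher there, against 3 higher and 5 lower in U251. The T98G change was the higher in 21 and the lower in 1 (median 1.06). In NC 19 were already higher in T98G and 8 in U251, and in PEPD-OE 31 were higher in T98G, so that 15 moved away from the U251 NC level and 6 toward it. AKR1C1 (ENSG00000187134, GRCh38 chromosome 10, 4963253 to 4983283), an aldo-keto reductase with near-identical relatives between which counting may split reads, went from 65.4, 81.9 and 68.99 to 617, 623 and 775 CPM in T98G. In U251 it stood at 14.4, 18.0 and 8.97 and 9.04, 21.5 and 18.2 in NC and PEPD-OE, which overlapped, and the difference was 2.93 (SE 0.39, adjusted p = 1.23e-10). AKR1B10, another aldo-keto reductase, went from 46.4, 53.3 and 51.4 to 390.5, 391 and 412 CPM in T98G and stood at 7.22, 6.44 and 10.2 and 9.04, 2.39 and 5.34 in U251. OSGIN1, an oxidative stress gene under NRF2, rose in T98G from 17.7 ± 3.68 to 129 ± 4.84 CPM and stood at 7.97 ± 0.897 and 6.59 ± 1.58 in U251. The antioxidant response element TGACNNNGC was found in 5 of 29 promoters of the list, 11.03% of all promoters and 12.7% of tested genes with a promoter. The median difference between the lines was 0.55 in those 5 genes and 1.41 in the 24 without the element, which was not tested. The mitochondrially encoded genes, subunits of the respiratory chain, also diverged: 9 of 13 rose in T98G, 5 fell in U251 and 9 differed between the lines (median 1.01). The last count depended on the setting: it was 7 without U251 NC replicate 1 and 13 with the replicate block. Counts under MT-ND6, a subunit of complex I that is read from the light strand and so lies opposite heavy-strand RNA, went from 13765, 11719 and 11319 to 28371, 24468 and 27531 CPM in T98G and from 11347, 10169 and 11939 to 8225, 6905 and 6554 in U251. Of the nuclear-encoded subunits of the same complexes, 4 of 49 had a higher and 1 a lower T98G change (median 0.29).

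Collagen is a main source of the dipeptides that prolidase splits. Enzymes and carriers that modify, cross-link and export collagen rose in T98G in 12 of 23 genes, 11 had a higher and 1 a lower T98G than U251 change (median 0.62), and 7 moved away from the U251 NC level. MIA3 (opposite AL592148.3), which loads collagen into secretory carriers, went from 222, 197 and 225 to 586, 424 and 402 CPM in T98G and stood at 139.6, 173 and 186 and 172, 139.7 and 144 in U251. P4HA2 (opposite P4HA2-AS1), a prolyl hydroxylase of collagen, rose in T98G from 21.0 ± 7.35 to 45.7 ± 7.70 CPM and stood at 18.6 ± 8.23 and 12.1 ± 2.78 in U251. Of 23 genes only 9 had no opposite-strand exon, of which 3 had the higher T98G change. The collagens themselves were mixed, with 6 higher and 3 lower of 20. COL1A2, a chain of type I collagen, went from 228, 188 and 256 to 596, 453 and 553 CPM in T98G and from 491, 533 and 496 to 306, 394 and 339 in U251, each line toward the other's NC level. COL4A1, of basement membrane collagen, went the other way, from 208 ± 23.1 to 139.8 ± 26.04 CPM in T98G and from 71.6 ± 17.9 to 132 ± 6.74 in U251, where the PEPD-OE levels no longer differed detectably (adjusted p = 0.705). EFEMP1, the matrix protein fibulin-3, moved away in both lines, falling from 25.3, 10.4 and 18.8 to 2.96, 0 and 5.70 CPM in T98G and rising from 69.8 ± 12.7 to 102 ± 11.5 in U251 (difference -3.01, adjusted p = 5.88e-06).

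**Figure D5:**
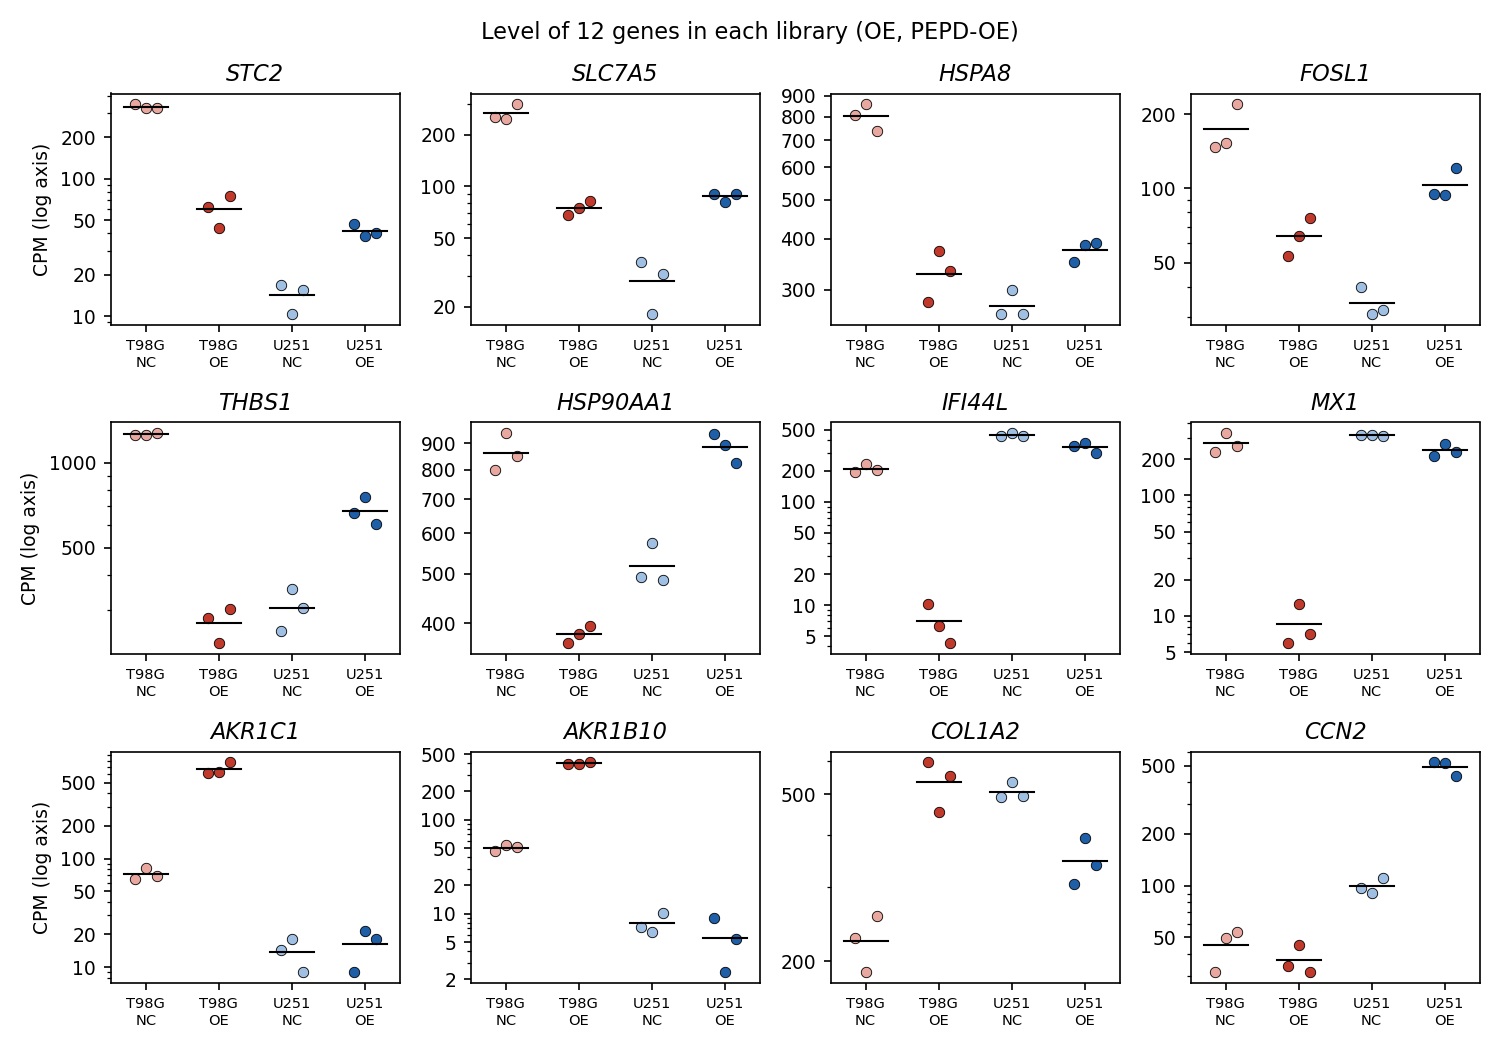
CPM of 12 genes in each library on a log axis that differs between panels; points are libraries, black lines are means of 3, and OE stands for PEPD-OE. STC2, SLC7A5, HSPA8, FOSL1, THBS1 and HSP90AA1 fell in T98G and rose in U251, IFI44L and MX1 fell in both and by more in T98G, AKR1C1 and AKR1B10 rose in T98G, COL1A2 rose in T98G and fell in U251, and CCN2 rose in U251.

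Some of the largest differences lay outside these lists. SGPP2, a sphingosine-1-phosphate phosphatase, fell in T98G from 196, 162 and 203 to 1.48, 3.12 and 0 CPM, which is 3 counts and lower by 125-fold (exact 95% counting interval 42.6 to 611). In U251 it rose from 73.4, 67.0 and 120.4 to 212, 134 and 138, so that the T98G level passed below U251 NC. Counts under CCDC152 (ENSG00000198865, GRCh38 chromosome 5, 42756801 to 42802360, opposite SELENOP, the selenium carrier selenoprotein P) rose in T98G from 84.4, 62.4 and 76.5 to 1482, 1619 and 1455 CPM and fell in U251 from 254, 255 and 269 to 85.9, 83.6 and 65.1. The difference was 6.11 (SE 0.18, adjusted p = 4.7e-69), and the T98G level passed above U251 NC. SELENOP's own counts stood at 55.0 ± 18.8 and 58.4 ± 5.82 CPM in T98G NC and PEPD-OE, and at 7 and 0 counts in U251 NC and PEPD-OE; its difference between the lines was not called without U251 NC replicate 3 (adjusted p = 0.0734). TBPL1 (opposite SLC2A12, a glucose transporter) rose in T98G from 52.8, 66.3 and 70.2 to 531, 457 and 494 CPM and fell in U251 from 539, 557 and 564 to 217, 187 and 189. IQCK (opposite GPRC5B and KNOP1 and AC027130.1) rose in T98G from 46.7 ± 3.998 to 223 ± 16.2 CPM and fell in U251 from 80.0 ± 8.52 to 34.3 ± 1.75. SAT1, which acetylates polyamines, rose in T98G from 16.9, 27.3 and 5.02 to 166, 207 and 195 CPM and stood at 22.9, 25.8 and 17.9 and 10.5, 22.7 and 12.8 in U251, a difference of 4.04 (SE 0.42, adjusted p = 2.42e-15). CSF1, the macrophage growth factor, rose in T98G from 67.6 ± 11.2 to 185 ± 11.9 CPM and fell in U251 from 49.6 ± 9.20 to 26.2 ± 4.42, from NC levels that did not differ detectably.

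A minority of the genes called in both lines went the same way, PEPD among them. Of the 89 genes called with the same sign, 37 still differed in size between the lines, and 52 did not pass that test, which does not show that they changed equally. EGLN1, the oxygen sensor that hydroxylates HIF, rose from 6.33, 2.60 and 7.53 to 17.7, 26.5 and 14.2 CPM in T98G and from 4.82, 3.86 and 3.84 to 19.6, 16.7 and 11.7 in U251, a difference of -0.05 (SE 0.65, adjusted p = 0.973). The T98G increase of EGLN1 was not called without replicate 2 of both T98G groups (adjusted p = 0.173). ACO1, the cytosolic aconitase that also senses iron, fell from 42.2, 58.5 and 51.4 to 29.6, 31.2 and 29.9 CPM in T98G and from 535, 572 and 548 to 463, 287 and 261 in U251, keeping its NC gap (-3.41 and -3.45); its T98G decrease was likewise not called without that pair (adjusted p = 0.0878). Cholesterol synthesis genes had like medians, 0.56 in T98G and 0.55 in U251, with 6 rising and 1 falling of 13 in T98G and 3 rising in U251, and 2 higher and 1 lower in the difference.

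For 369 genes the gap between the lines was called in both conditions and turned round. PSAT1 went from 2.04 in NC to -2.24 in PEPD-OE (log2 T98G minus U251), and its T98G level passed below U251 NC (-1.43, adjusted p = 0.00444). HSP90AA1 turned from 0.74 to -1.22, CLSPN from 1.16 to -1.15 and THBS1 from 2.05 to -1.31, all toward a higher level in U251. COL1A2 turned the other way, from -1.18 to 0.62, as did counts under CCDC152, from -1.82 to 4.29, and TBPL1, from -3.10 to 1.33. For HSPA8, SLC7A5, CDC45 and COL4A1 the NC gaps of 1.55, 3.23, 1.99 and 1.56 were no longer called in PEPD-OE (adjusted p = 0.129, 0.311, 0.321 and 0.705). Interferon-stimulated MX1 and the aldo-keto reductase AKR1B10 show gaps that opened or widened: -0.20 to -4.79 and 2.65 to 6.18.

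Factors and markers of neural stem cells and astroglia differed between the NC libraries of the lines. SOX2, a neural stem cell factor, had 1 count over the T98G NC libraries and 1 over T98G PEPD-OE, against 381 ± 40.2 and 276 ± 39.8 CPM in U251 NC and PEPD-OE. GFAP (opposite CCDC103), the astrocyte filament, fell in U251 from 1376, 1532 and 1401 to 865, 932 and 994 CPM and stood at 37.98, 53.3 and 52.7 and 44.4, 70.1 and 82.6 in T98G (difference 1.04, adjusted p = 1.43e-05). ID1, which blocks differentiation factors, moved toward the other line in both, from 58.6 ± 6.97 to 106 ± 13.2 CPM in T98G and from 218 ± 20.5 to 159 ± 9.19 in U251. Of 16 neural stem factors, 12 were higher in U251 NC and 13 in U251 PEPD-OE. The glioma and astroglia markers were mixed: of 9 tested, 6 were higher in U251 NC and 2 in T98G NC. In PEPD-OE 7 were higher in U251 and 1 in T98G.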

How the data were processed

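Polyadenylated RNA was made into strand-marking libraries and sequenced in paired ends, per the labels' protocols. HISAT2, featureCounts, Subread, fastp, FastQC and the build GRCh38 are named in the submitters' processing notes, without roles. How featureCounts treated strand, and its annotation, are not stated there. The authors deposited 1 table of raw counts per Ensembl gene (63241 genes, 12 libraries), with symbols, and columns were assigned by library name. Positions and exon overlaps came from GENCODE 29. Genes were filtered with filterByExpr (minimum count 10), scaled by TMM and fitted in edgeR 4.0.16 (R 4.3.3, robust quasi-likelihood, 1 mean per group, 8 residual degrees of freedom), with Benjamini-Hochberg adjustment over the 8773 genes tested. The contrasts were the change in each line, the T98G minus the U251 change, and the gap between lines in NC and in PEPD-OE. SE is the size of the log2 difference divided by the square root of F. Distances used log2 CPM with a prior count of 2 and were computed in Python 3.11.15. A gene was toward or away when the NC gap and the line's change were both called, and past when the PEPD-OE level differed from the other line's NC level with the sign turned. Ratios of groups with 1 to 3 counts carry exact 95% intervals, and floors of 3 counts stand for 0; both cover counting error only. The comparison, the 31 gene lists and the 7 marker lists were chosen with earlier results of these data known. Named genes were PEPD, the largest opposite, line-dependent, shared, toward, away and past changes with at least 10 CPM and no overlap between groups, and up to 4 line-dependent members per list. TRIB3, CCN1, SOX2, BEST1, FTH1, TALAM1, MALAT1, MGMT, PTPRC, C1QA and C1QB fall outside that rule; their values were known when they were chosen. Alternatives were DESeq2 1.42.0, scaling by RLE or upper quartile, other filters, robust estimation off, genes without opposite-strand exons, the replicate block, other distance measures, each library left out and, added after seeing the data, both T98G replicates numbered 2 left out.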

Additional observations from a re-analysis of the deposited data

Results flagged for a closer look

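In all, 2428 genes changed differently in T98G and U251 by the test of the difference itself (edgeR quasi-likelihood test, adjusted p under 0.05). Among genes called in each line with opposite signs, the largest log2 differences of the T98G minus the U251 change were picked out for the same reason. The T98G change exceeded the U251 change by 6.11 for CCDC152 (opposite SELENOP), 4.43 for TBPL1 (opposite SLC2A12), 3.94 for ADIRF (opposite ADIRF-AS1), 3.78 for ACSF2 (opposite CHAD), 3.57 for CYB5D1 (opposite NAA38), 3.48 for IQCK (opposite GPRC5B and KNOP1 and AC027130.1), 3.47 for ZSCAN31, 3.35 for TUBG2. The T98G minus U251 difference was -7.69 for SGPP2, -5.25 for GFRA1, -4.67 for CXCL8, -4.50 for GDF15, -4.45 for NT5E, -4.35 for ATF5 (opposite NUP62 and IL4I1), -4.23 for FSIP1 (opposite THBS1 and AC023908.3), -4.02 for RYR3 (opposite AC010809.2 and AC010809.3). SGPP2, GFRA1 and CXCL8 had 3, 1 and 1 counts in T98G PEPD-OE, so their fitted differences depend on the prior count of the fit and are no bounds. The difference between the lines was called for all 16 genes under every alternative run in which they were tested. Without replicate 2 of both T98G groups the T98G change was not called for ZSCAN31 (adjusted p = 0.0588) and CXCL8 (0.0541). That of ZSCAN31 was also lost without T98G PEPD-OE replicate 3 (0.0512) and without T98G NC replicate 3 (0.0534). The U251 change by itself was lost for 8 of them: the setting with the highest adjusted p was, in turn, ADIRF (without U251 NC replicate 3, 0.12), ACSF2 (without U251 PEPD-OE replicate 2, 0.0524), CYB5D1 (without U251 NC replicate 3, 0.223), ZSCAN31 (without U251 PEPD-OE replicate 3, 0.219), TUBG2 (without U251 PEPD-OE replicate 3, 0.0788), GFRA1 (without U251 NC replicate 1, 0.141), CXCL8 (without U251 PEPD-OE replicate 3, 0.0675), ATF5 (without U251 NC replicate 2, 0.193).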

How the results depend on the processing

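No difference recomputed for a named gene, and no distance or position, turned sign under any alternative run. The median over all genes tested did: for the difference between lines it went from -0.02 to 0.02 with RLE scaling and 0.02 with DESeq2, and for U251 from 0.00167 to -0.02 and -0.02. With upper-quartile scaling, 47.9% of the calls for the difference and 49.8% of those in T98G were higher, against 51.0% and 54.7%. With DESeq2, U251 had 415 calls, 296 toward and 42 away, and 218 genes had opposite and 53 the same signs. With no filter beyond 1 count, 47 U251 genes were away, 227 had opposite and 51 the same signs. Among genes without an opposite-strand exon, of which fewer were tested, the calls were 921 for the difference between lines, 1136 in T98G, 246 in U251, 1833 in NC and 2038 in PEPD-OE; toward and away were 432 and 207 in T98G and 171 and 18 in U251; 106 had opposite and 31 the same signs. Line-dependent members there were 27 interferon, 14 ATF4, 7 synthetase, 8 heat shock, 9 ERK, 7 YAP-TEAD and 3 collagen modification genes. Leaving out each library in turn gave 440 to 742 U251 calls, 298 to 488 toward, 43 to 83 away, 201 to 341 opposite and 56 to 85 same signs; T98G had 404 to 588 genes away and the difference between lines had 2116 to 2389 calls. The lines stood 13.9% farther apart in PEPD-OE over genes of at least 50 CPM, 13.0% without opposite exons, 7.86% by the median and 19.7% by rank correlation. The T98G position was 5.50% over genes of at least 50 CPM, 9.85% over all tested, 6.94% without opposite exons and 8.96% thinned to the smallest library, where the U251 position was 13.0%; these position settings were chosen after seeing the data. T98G stayed farther and U251 closer in every distance setting. Replicate numbers were not used as pairs in the main fit. Correlations of same-numbered libraries ran from -0.05 to 0.14, against -0.11 to 0.06 for other numbers. Of 12 libraries, 9 correlated best with their own number, and whether libraries of a number shared their handling was not tested. Without replicate 2 of both T98G groups, a setting added after seeing the data, T98G had 376 genes away against 566. With the replicate block the difference between lines had 2429 calls, U251 792, and 377 genes had opposite signs. Of 4104 checks of single genes 3828 kept their call, 275 lost it and 1 gained one. The totals of 464056 to 924204 counts limit what genes at a few CPM can show.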

Other observations

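Of 16 fatty acid synthesis genes 6 rose in T98G and 1 in U251, and 5 had the higher T98G change (median 0.31), and of 13 cholesterol synthesis genes 2 had a higher and 1 a lower one. Over all genes tested 14.1% were called higher and 13.6% lower in this difference, 27.7% in either direction. Neither list was tested, and with so few members these counts are not read as a result about the lists. SCD, which desaturates stearate, rose in both lines, from 47.8 ± 3.20 to 177 ± 6.79 CPM in T98G and from 52.2 ± 14.5 to 77.3 ± 5.54 in U251 (difference 1.31, edgeR adjusted p = 2.55e-05). ACAT2 (opposite SOD2-OT1 and TCP1), a thiolase, fell in T98G from 225 ± 17.9 to 83.1 ± 24.3 CPM and stood at 205 ± 7.03 and 231 ± 6.97 in U251. Of 23 glycolysis genes 9 rose and 1 fell in T98G, 4 fell in U251, and 10 had a higher and 1 a lower T98G change. GPI, glucose-6-phosphate isomerase of glycolysis, rose in T98G from 187 ± 8.65 to 341 ± 28.2 CPM and stood at 191 ± 15.9 and 159.6 ± 21.5 in U251. SLC2A1 (opposite SLC2A1-DT), the glucose transporter GLUT1, fell in T98G from 337 ± 7.64 to 139 ± 13.0 CPM and stood at 162 ± 18.0 and 172 ± 17.3 in U251. Among hypoxia genes 8 of 29 had a higher and 4 a lower T98G change. GLUL, which makes glutamine, rose in T98G from 34.9 ± 13.8 to 98.9 ± 5.79 and stood at 22.5 ± 3.68 and 22.7 ± 3.32 in U251.

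LAP3, a leucine aminopeptidase, fell in T98G from 62.8 ± 11.2 to 8.42 ± 1.71 CPM and stood at 60.8 ± 8.92 and 52.2 ± 20.02 in U251, and the proline metabolism and peptidase list as a whole had 3 higher and 3 lower T98G changes among 19 genes. CLU, the secreted chaperone clusterin, rose in T98G from 56.9 ± 11.05 to 205 ± 20.04 CPM and stood at 58.7 ± 3.75 and 46.6 ± 9.24 in U251. SOX9, a glial lineage factor, fell in T98G from 83.2 ± 16.2 to 31.0 ± 6.97 CPM and stood at 92.2 ± 15.7 and 101.4 ± 7.44 in U251. Of 30 matrix glycoproteins 10 had a higher and 7 a lower T98G change, of 24 matrix proteases and inhibitors 3 and 4, and of 24 TGF-beta genes 8 and 3. For integrins these counts were 1 and 2 of 13, for p53 targets 1 and 5 of 16, for inflammatory and NF-kB targets 2 and 5 of 14, and for the mesenchymal-like glioblastoma state 7 and 6 of 27. Over all genes tested 14.1% had a higher and 13.6% a lower T98G change, and none of these lists was tested. Higher T98G changes were called in 2 of 7 astrocyte-like genes, in 3 of 6 oligodendrocyte- and neural-progenitor-like genes and in 2 of 3 tested fibroblast and pericyte markers. Glioma and astroglia markers had 1 higher and 2 lower T98G changes among 9 tested and epithelial markers 1 and 1 among 3. The neuron and oligodendrocyte markers summed to 18.3 to 30.2 CPM in T98G NC, 15.4 to 26.3 in T98G PEPD-OE, 22.6 to 39.3 in U251 NC and 47.9 to 51.2 in U251 PEPD-OE, and the endothelial markers to 7.86 to 16.2, 9.01 to 18.0, 11.9 to 17.6 and 15.1 to 30.7.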
